A study of Mus musculus with 12 samples.

Results

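Chemokines and their receptors were followed in RNA from the terminal ileum of 12 mice, in 4 groups of 3. The members are all genes of the deposited count table whose symbol starts with Ccl, Cxcl, Cx3cl, Xcl, Ccr, Cxcr, Cx3cr or Xcr and a digit, except Cxcr5, Cxcr6 and Ccr6, which the rule leaves out. Of 23284 genes in the table, 56 fit this rule and 49 of them (33 ligands and 16 receptors) had at least 1 read in the 12 libraries. A filter on low counts left 42 members (28 ligands and 14 receptors) among 15866 genes for testing. Apart from the need for at least 1 read, the rule uses names only. The members were still chosen with earlier results of these data known.

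The first group was wild type C57BL/6 mice and the second was mice labelled Rag1-/-, a mutation that stops the assembly of antigen receptors and leaves no mature T or B cells. The other two groups were Tcra-/- mice, which lack the alpha chain of the main T cell receptor and keep B cells and T cells with gamma delta receptors. One of them (co-housed) had shared a cage with age-matched wild type males for 4 to 8 weeks, and the other (separately housed) was kept apart. All mice came from Taconic and lived under specific pathogen free conditions. Their age, the deleted part of each gene and the number of cages per group are not stated in the labels, so p-values of the housing comparison measure spread among mice and not among cages. The study set out 2 comparisons, Rag1-/- against wild type and co-housed against separately housed Tcra-/-.

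Chemokines are small secreted proteins that guide the movement of leukocytes. They bind receptors that span the membrane several times and couple to G proteins, and most receptors take more than one ligand. In the small intestine, CCL25 from the epithelium attracts lymphocytes that carry CCR9, CXCL13 draws B cells into follicles, and CCL2 and its relatives recruit monocytes through CCR2. CXCL9, CXCL10 and CXCL11 are made after interferon signals and act through CXCR3, while CXCL1, CXCL2, CXCL3 and CXCL5 attract neutrophils through CXCR2.

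The libraries held 37061276 to 50581616 counted reads each, and pairs of mice of the same group correlated at 0.992 to 0.997 (12 pairs) on log2(CPM + 1) against 0.951 to 0.992 (54 pairs) across groups. CPM stands for reads scaled to a library of 1000000 after TMM, a correction for differences in composition. Rag1 itself goes against its label: it had 236 reads in the mice labelled Rag1-/- (1.81 CPM, SD 0.166, n = 3) and none among the 9 remaining mice. As the deleted part is not given, these reads check nothing. The 10 B cell markers followed the label and summed to 3.12 to 4.56 CPM there against 55.6 to 217 CPM in the other 9 mice. The 12 T cell markers summed to 89.0 to 132 CPM in wild type, 8.52 to 12.4 CPM in the mice labelled Rag1-/-, 30.9 to 70.2 CPM in co-housed and 13.5 to 14.7 CPM in separately housed Tcra-/- mice. Transcripts of the T cell receptor alpha chain were not analysed here. The smooth muscle and fibroblast markers summed to 1624 to 2755 CPM and those of endothelium to 35.8 to 63.8 CPM over the 12 mice. Natural killer and innate lymphoid cell markers summed to 45.4 to 95.1 CPM, and those of M cells and follicle epithelium to 97.7 to 170 CPM.

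More members differed with housing than between the mice labelled Rag1-/- and wild type, and the same held over all tested genes. Among the 42 tested, 25 were higher and 1 was lower in co-housed than in separately housed Tcra-/- mice. The same test called 21.1% of all tested genes higher and 17.7% lower, against 59.5% and 2.38% of the members. The median log2 fold change of the members was 1.54, beside -0.01 over all tested genes. In the mice labelled Rag1-/-, 7 members were higher and 10 lower than in wild type, 16.7% and 23.8% of those tested, where 9.42% and 11.5% of all genes were. Their median log2 fold change was 0.05, beside -0.02 over all tested genes. In the Rag1 comparison 5 of the 14 receptors fell and 1 rose, while 6 of the 28 ligands rose and 5 fell. With housing, 9 receptors rose and none fell (none at an unadjusted p under 0.05 or with DESeq2 either), and 16 ligands rose and 1 fell. A member was called where edgeR's quasi-likelihood test gave an adjusted p under 0.01, the threshold that the study's design states, with Benjamini-Hochberg adjustment over all 15866 genes. Counts of called genes in groups and marker lists stand beside the shares of all tested genes given here for the same comparison.

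Scaling by library size alone gave 6 higher and 14 lower members in the Rag1 comparison, where it moved the median of all genes from -0.02 to -0.19 and that of the members from 0.05 to -0.11. It gave 24 higher and 1 lower with housing, where that median moved from -0.01 to -0.12. Without mouse WTB6x3159, 4 members were called higher in the mice labelled Rag1-/-. No member was lower in co-housed mice without TCRaSepxT2 or TCRaSepxT4 (DESeq2 called 2 lower and edgeR 3 at an unadjusted p under 0.05, from all mice).

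**Figure D1:**
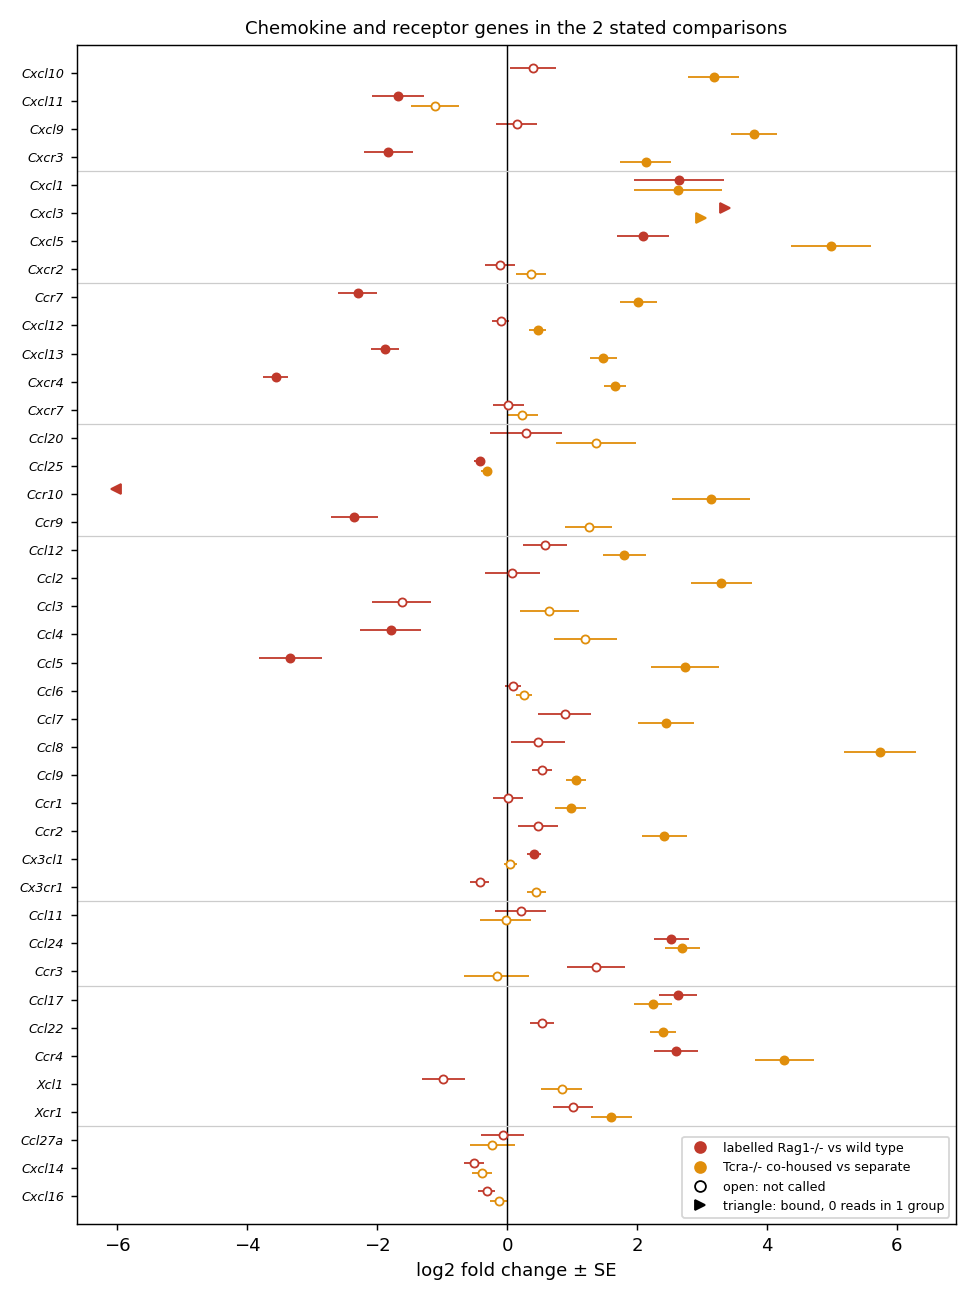
Log2 fold changes with standard errors of 41 of the 42 tested members, by role, for the mice labelled Rag1-/- against wild type (red) and co-housed against separately housed Tcra-/- mice (orange), 3 mice per group. Filled points passed the adjusted p of 0.01, open points did not, and triangles mark bounds for genes with 0 reads in one group; 24 orange points to the right of 0 are called, against 7 red ones.

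Levels between genes were compared only after division by exon length (CPM per kb). The highest in wild type mice were Ccl25, the epithelial ligand of Ccr9, at 428 ± 30.4 CPM per kb, and Ccl6, a CC ligand of myeloid cells, at 227 ± 32. Ccl5, made by T and natural killer cells, came next at 89 ± 32.9, ahead of Cx3cl1, the membrane-bound fractalkine, at 33.8 ± 2.67. Cxcr4 was the highest receptor, at 10.1 ± 2.15 CPM per kb (all SD, n = 3). Ccl25, Ccl6 and Cx3cl1 together made up 67.9% to 87.2% of the summed CPM of the members across the 12 mice. Ccl5 spanned 6.74 to 11.4 CPM per kb in the mice labelled Rag1-/-, 11.9 to 41.2 in co-housed and 3.25 to 4.0 in separately housed mice, against 53.4 to 118 in wild type.

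**Figure D2:**
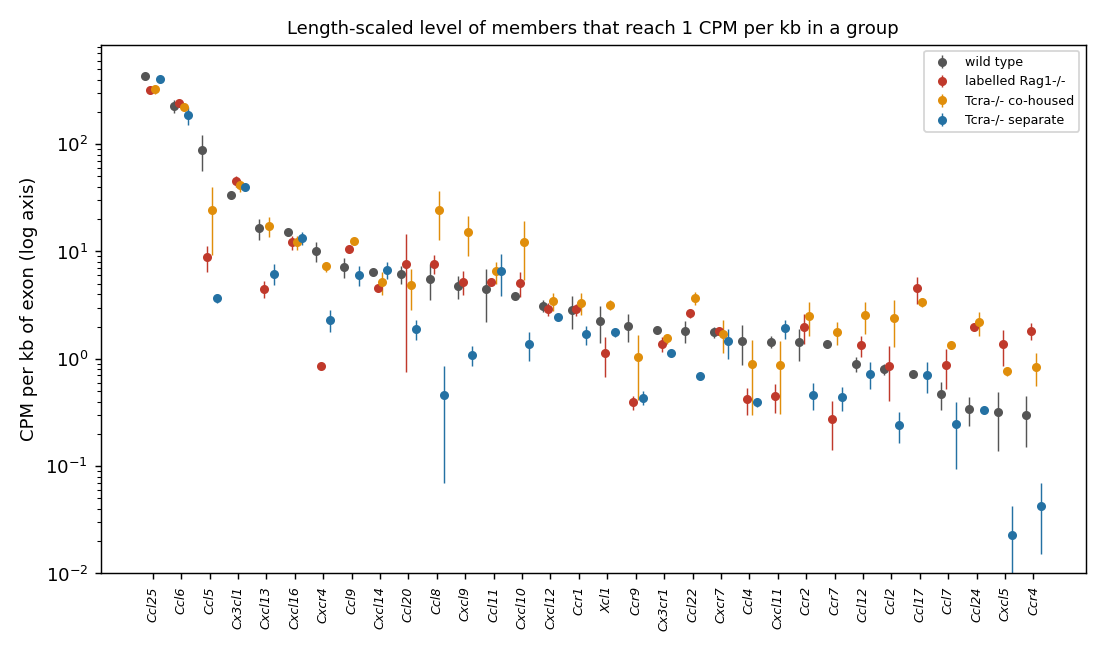
Mean level in CPM per kb of exon (log axis) with SD of 32 members that reach 1 CPM per kb in a group, ordered by the wild type mean, 3 mice per group. Ccl25 and Ccl6 lie highest in every group, and separately housed Tcra-/- mice (blue) lie lowest for Ccl8, Ccr4 and Cxcl5. The lower error bar of Cxcl5 in that group runs below the axis.

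The interferon-inducible ligands Cxcl9 and Cxcl10 rose with shared housing, and the genes for them and Cxcl11 lie side by side on chromosome 5 (chr5:92750357-92757105, chr5:92775665-92777915 and chr5:92788571-92792322, mm9, minus strand). Single mice are named below as on the labels, and values run in the order RAG1x3163, RAG1x3164 and RAG1x3168, TCRaCox3155, TCRaCox3156 and TCRaCox3157, TCRaSepxT2, TCRaSepxT3 and TCRaSepxT4, and WTB6x3159, WTB6x3160 and WTB6x3167. Cxcl9 stood at 41.5, 63.7 and 27.8 CPM in co-housed and 3.77, 2.47 and 3.24 CPM in separately housed Tcra-/- mice. It was at 12.2, 11.5 and 17.6 CPM in wild type mice and 15.2, 11.5 and 18.9 CPM in the mice labelled Rag1-/-. Every co-housed mouse was above every separately housed one, with wild type and Rag1-labelled mice between them and overlapping each other. The difference with housing was 14-fold (log2 fold change 3.81, SE 0.36, edgeR adjusted p = 1.3e-05), and the Rag1 comparison did not pass the test (log2 fold change 0.15, SE 0.31, edgeR adjusted p = 0.77).

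Cxcl10 had the same order: 11.1, 22.1 and 7.55 CPM in co-housed mice, 1.93, 1.51 and 1.05 in separately housed mice, 3.94, 4.49 and 4.38 in wild type and 7.32, 5.21 and 4.38 in the mice labelled Rag1-/-. The co-housed and separately housed groups did not overlap, and the highest value was that of TCRaCox3156. The fold change with housing was 9.07 (log2 fold change 3.18, SE 0.39, edgeR adjusted p = 3.7e-05), beside a log2 fold change of 0.40 (SE 0.36, edgeR adjusted p = 0.449) in the Rag1 comparison, which did not pass. Cxcl11 did not follow its neighbours. It was highest in separately housed Tcra-/- mice, at 3.77, 2.89 and 2.6 CPM, and stood at 1.31, 2.4 and 0.545 CPM in co-housed mice. Wild type mice had 2.61, 2.06 and 2.28 CPM and the mice labelled Rag1-/- 0.465, 0.853 and 0.832 CPM. The co-housed and separately housed mice did not overlap, but their difference missed the threshold (log2 fold change -1.11, SE 0.37, edgeR adjusted p = 0.0207). It passed with DESeq2 (adjusted p = 0.0079) and without TCRaCox3156 (adjusted p = 0.000714). Cxcl11 fell in the mice labelled Rag1-/- (log2 fold change -1.68, SE 0.40, edgeR adjusted p = 0.0046), a call that ended when any 1 of the 6 mice was left out (edgeR adjusted p 0.0107 to 0.0244).

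Cxcr3, their receptor on activated T and natural killer cells, was at 1.08, 1.36 and 2.1 CPM in wild type and 0.367, 0.498 and 0.406 CPM in the mice labelled Rag1-/-. In co-housed mice it was at 0.857, 2.01 and 1.16 CPM, against 0.219, 0.443 and 0.263 CPM in separately housed ones. Neither pair of groups overlapped. The receptor fell in the first comparison (log2 fold change -1.83, SE 0.38, edgeR adjusted p = 0.00141) and rose in the second (log2 fold change 2.13, SE 0.40, edgeR adjusted p = 0.000293). The T cell marker sums given above moved in the same directions, and their part in the result was not tested. In whole tissue, fewer cells of a type and less RNA per cell cannot be told apart.

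The 250 bases before the start sites of Cxcl9 and Cxcl10 are shown because these 2 ligands rose with housing and both hold a match to an NF-kB motif. The sequences are RefSeq's on GRCm38.p6, 5′ to 3′ on the gene's strand, at chr5:92328080-92328329 and chr5:92348890-92349139, both minus strand, and capitals mark the matches.
Cxcl9: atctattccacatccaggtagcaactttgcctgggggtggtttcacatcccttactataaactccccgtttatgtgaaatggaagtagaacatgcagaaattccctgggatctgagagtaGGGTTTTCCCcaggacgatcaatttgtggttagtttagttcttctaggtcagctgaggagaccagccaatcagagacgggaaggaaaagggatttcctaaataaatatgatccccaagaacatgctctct
Cxcl10: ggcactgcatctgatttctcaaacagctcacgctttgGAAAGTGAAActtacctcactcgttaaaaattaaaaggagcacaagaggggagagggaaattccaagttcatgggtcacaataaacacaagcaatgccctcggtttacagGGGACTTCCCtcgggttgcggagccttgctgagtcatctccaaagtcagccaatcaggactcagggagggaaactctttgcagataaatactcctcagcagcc
The capitals are 1 match to GGGNNTTNCC, the NF-kB motif searched, in Cxcl9 (130 bases before the start site) and 1 in Cxcl10 (103 bases before). Cxcl10 also holds a match to GAAANNGAAA, the interferon-stimulated response element, 213 bases before the start site. Matches on either strand were counted in windows of 300 bases, from 250 before to 50 after each start site. The table of promoters matched 36 of the 49 members, with 39 start sites. NF-kB matches lay in 8 of these (20.5%) and in 4.79% of all 32851 promoters, and response element matches in 2 (5.13%) and in 3.44%. TTCNNNGAA, the motif of gamma-activated sites, lay in 3 (7.69%), those of Ccl17, Ccr1l1 and Cxcl14, and in 8.3% of all. Members with no entry included Cxcl16, Ccl2, Ccl7, Ccl11, Ccl5, Ccl4, Ccr7, Ccr10, Cxcl5, Cxcl11, Ccl24 and Cxcl17.

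Of 14 tested ligands and receptors of monocytes and effector cells, 9 rose with shared housing, while in the mice labelled Rag1-/- 1 rose and 2 fell. The share risen with housing was 64.3%, beside 21.1% of all tested genes. By Rag1 label 7.14% rose and 14.3% fell, near the 9.42% and 11.5% of all tested genes. The median log2 fold changes of this group were 1.51 with housing and 0.09 by Rag1 label. No gene of this group fell with housing by edgeR's adjusted p, at an unadjusted p under 0.05 or with DESeq2. The monocyte attractants Ccl2, Ccl7 and Ccl12 lie together with Ccl8 and the eosinophil attractant Ccl11 on chromosome 11 (chr11:81849079-81930301, mm9). Ccl8 differed most with housing among these, with 11.3, 19 and 7.23 CPM in co-housed and 0.132, 0.466 and 0.109 CPM in separately housed mice. Wild type mice had 1.73, 2.95 and 3.8 CPM and the mice labelled Rag1-/- 4.63, 3.03 and 4.16 CPM. All 9 other mice were above the 3 separately housed ones, and all co-housed mice were above all others. The difference with housing was 53.4-fold (log2 fold change 5.74, SE 0.55, edgeR adjusted p = 6.3e-06), and without TCRaSepxT3 the log2 fold change was 6.67. The Rag1 comparison did not pass (log2 fold change 0.48, SE 0.41, edgeR adjusted p = 0.427).

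Ccl2, the main ligand of Ccr2, stood at 2.54, 2.38 and 0.891 CPM in co-housed and 0.197, 0.256 and 0.131 CPM in separately housed mice, beside 0.585, 0.725 and 0.626 CPM in wild type and 1.1, 0.427 and 0.534 CPM in the mice labelled Rag1-/-. The low value of TCRaCox3157 was still above all 3 separately housed mice. Ccl2 rose with housing (log2 fold change 3.30, SE 0.47, edgeR adjusted p = 2.4e-05). Ccl7 was at 1.09, 1.14 and 0.99 CPM against 0.176, 0.326 and 0.0875 CPM (log2 fold change 2.45, SE 0.43, edgeR adjusted p = 0.000202), and Ccl12 at 1.17, 1.87 and 1.04 CPM against 0.439, 0.466 and 0.263 CPM (log2 fold change 1.81, SE 0.34, edgeR adjusted p = 0.000303). Both groups were apart for both genes. In wild type, Ccl7 spanned 0.272 to 0.492 CPM and Ccl12 0.408 to 0.559 CPM, and in the mice labelled Rag1-/- 0.45 to 1.0 and 0.539 to 0.829 CPM. None of Ccl2, Ccl7 and Ccl12 passed the test there (log2 fold changes 0.08, 0.89 and 0.58, edgeR adjusted p = 0.906, 0.113 and 0.216).

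Their receptor Ccr2, which brings monocytes into tissue, was at 7.51, 12.5 and 6.76 CPM in co-housed and 2.19, 1.33 and 1.47 CPM in separately housed mice. Wild type mice had 3.76, 4.62 and 6.98 CPM and the mice labelled Rag1-/- 8.38, 4.55 and 8.43 CPM, with overlap between those groups. Ccr2 rose with housing (log2 fold change 2.42, SE 0.34, edgeR adjusted p = 7.6e-05) and did not pass in the Rag1 comparison (log2 fold change 0.48, SE 0.31, edgeR adjusted p = 0.284). The 15 macrophage and dendritic cell markers moved alongside with housing, where 12 of 15 rose (80.0%, beside 21.1% of all tested genes). Their sum was 335 to 526 CPM in co-housed and 170 to 221 CPM in separately housed mice. Their sum was 317 to 375 CPM in wild type and 256 to 289 CPM in the mice labelled Rag1-/-. There 2 of 15, Cd14 and Clec9a, rose (13.3%, beside 9.42% of all tested genes) and none fell. Most went down there, with a positive log2 fold change in 5 of the 15 and a median of -0.21. At an unadjusted p under 0.05, 3 were higher and 6 lower with edgeR, and DESeq2 called 3 higher and 1 lower. None of the 15 was at 0 reads, and their part in the result was not tested.

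Ccl5, an attractant of effector T cells, was at 28.3, 62.8 and 50.6 CPM in wild type mice and 4.38, 3.58 and 6.04 CPM in the mice labelled Rag1-/-. It was at 10.6, 21.9 and 6.34 CPM in co-housed and 2.0, 1.72 and 2.12 CPM in separately housed mice. All wild type mice were above all others, and all separately housed mice were below all others. Ccl5 fell 10.1-fold in the first comparison (log2 fold change -3.33, SE 0.49, edgeR adjusted p = 0.000838) and rose 6.66-fold in the second (log2 fold change 2.73, SE 0.52, edgeR adjusted p = 0.0021). The second call ended without TCRaSepxT3 (edgeR adjusted p = 0.011), and without TCRaCox3156 the log2 fold change was 2.13.

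Ccl3 and Ccl4, inflammatory attractants of monocytes and T cells, stayed near or under 1 CPM. Ccl4 was at 0.54, 1.04 and 1.32 CPM in wild type and 0.343, 0.19 and 0.299 CPM in the mice labelled Rag1-/-, without overlap (log2 fold change -1.79, SE 0.47, edgeR adjusted p = 0.00744), a call that ended without any 1 of 5 mice, WTB6x3159 being the exception (edgeR adjusted p 0.0167 to 0.0397). With housing it did not pass (log2 fold change 1.21, SE 0.49, edgeR adjusted p = 0.0484). Ccl3 spanned 0.635 to 0.961 CPM in wild type and 0.171 to 0.379 CPM in the mice labelled Rag1-/-, and missed the threshold there (log2 fold change -1.62, SE 0.45, edgeR adjusted p = 0.012). It passed with DESeq2 (adjusted p = 0.00899) and with library size alone as scaling (adjusted p = 0.0058).

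Ccl9 and Ccl6, neighbours of Ccl5 on chromosome 11 and ligands of Ccr1, differed in behaviour. Ccl9 was at 38.4, 37 and 38.7 CPM in co-housed and 20.4, 20.5 and 13.9 CPM in separately housed mice, 32.9, 31.3 and 30.4 CPM in the mice labelled Rag1-/- and 23.3, 16.5 and 25.2 CPM in wild type. It rose with housing (log2 fold change 1.06, SE 0.15, edgeR adjusted p = 5.7e-05), and the Rag1 comparison missed the threshold although the groups did not overlap (log2 fold change 0.54, SE 0.15, edgeR adjusted p = 0.0141; DESeq2 adjusted p = 0.00221). Ccl6 spanned 217 to 378 CPM over the 12 mice, and neither comparison passed (log2 fold change 0.09, SE 0.12, edgeR adjusted p = 0.633 by Rag1 label, and 0.26, SE 0.12, edgeR adjusted p = 0.0886 with housing). Ccr1 rose from 5.81, 4.61 and 3.94 CPM in separately housed to 10.3, 11 and 7.01 CPM in co-housed mice (log2 fold change 0.98, SE 0.23, edgeR adjusted p = 0.00286). That call ended without TCRaCox3155, TCRaCox3156, TCRaSepxT3 or TCRaSepxT4 (edgeR adjusted p 0.0124 to 0.019). In wild type Ccr1 was at 7.09, 6.01 and 11.2 CPM and in the mice labelled Rag1-/- at 7.74, 7.39 and 9.37 CPM (log2 fold change 0.01, SE 0.23, edgeR adjusted p = 0.973).

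Cx3cl1, which holds monocytes and lymphocytes through Cx3cr1, was at 138, 159 and 128 CPM in the mice labelled Rag1-/- and 104, 116 and 99.5 CPM in wild type. It rose there by 1.33-fold (log2 fold change 0.42, SE 0.10, edgeR adjusted p = 0.00479). The call ended without RAG1x3163, RAG1x3164, WTB6x3159 or WTB6x3167 (edgeR adjusted p 0.0122 to 0.031) and with library size alone as scaling (0.0424). In co-housed mice it was at 129, 113 and 147 CPM and in separately housed mice at 122, 119 and 136 CPM, with overlap (log2 fold change 0.05, SE 0.10, edgeR adjusted p = 0.707). Cx3cr1, the receptor of intestinal macrophages that sample the lumen, spanned 6.55 to 7.36 CPM in wild type, 4.31 to 5.89 in the mice labelled Rag1-/-, 5.23 to 6.47 in co-housed and 3.96 to 4.48 in separately housed mice. Neither comparison passed for it (log2 fold change -0.42, SE 0.14, edgeR adjusted p = 0.0348 by Rag1 label, and 0.45, SE 0.15, edgeR adjusted p = 0.0171 with housing). The first passed with library size alone as scaling (edgeR adjusted p = 0.00591) and the second with DESeq2 (adjusted p = 0.00973).

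**Figure D3:**
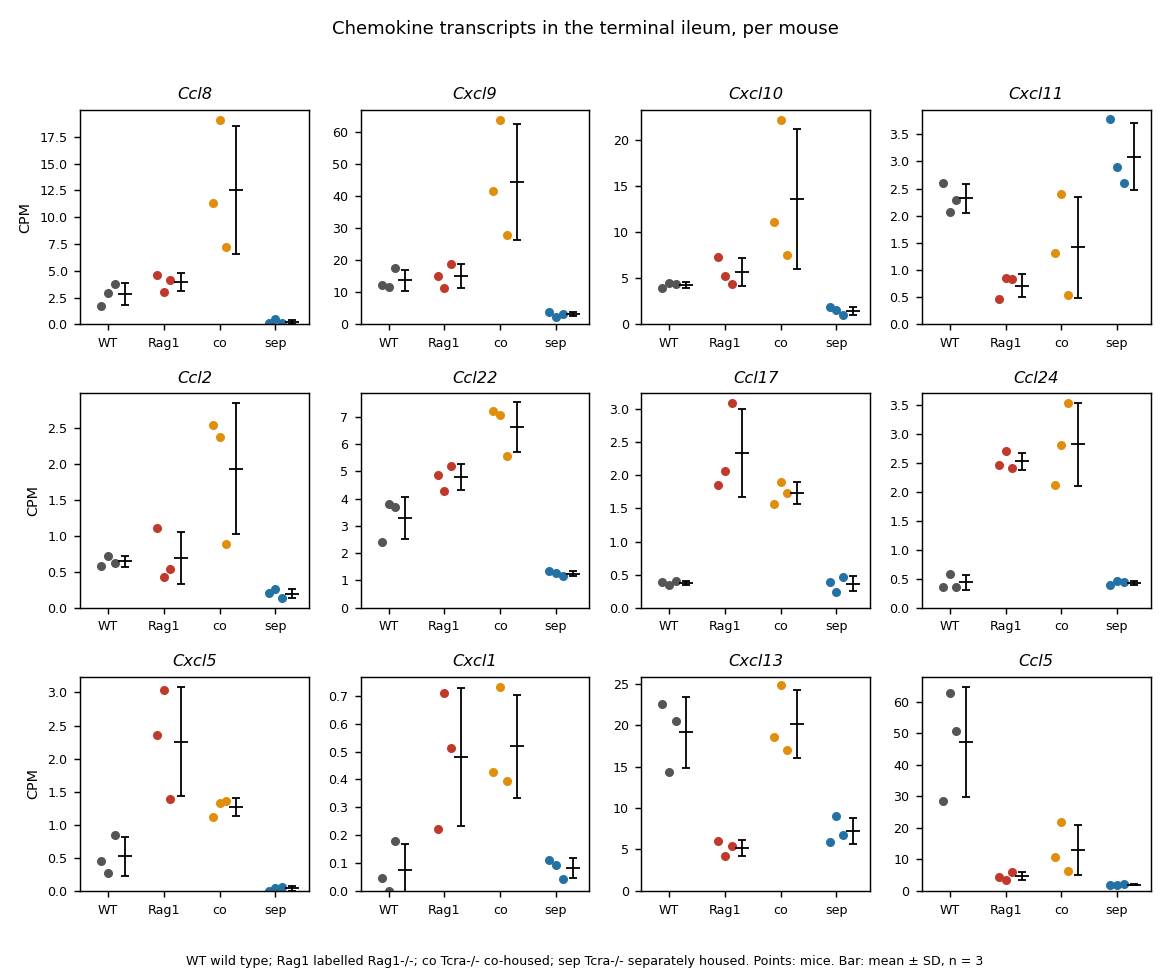
CPM of 12 chemokine ligands in each of the 12 mice, with the mean and SD of each group (n = 3); the lower error bar of Cxcl1 in wild type is cut at 0. Ccl8, Cxcl9, Cxcl10, Ccl2 and Ccl22 have their highest mean in co-housed Tcra-/- mice, whereas Ccl17, Ccl24 and Cxcl5 are high in both co-housed mice and mice labelled Rag1-/-.

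Neutrophil attractants were scarce, and 3 of the 4 tested genes of this group rose in both comparisons. This share was 75.0%, beside 9.42% of all tested genes by Rag1 label and 21.1% with housing. Cxcl1 and Cxcl3 passed the count filter only through mice labelled Rag1-/- and co-housed mice, the groups where they were high. The share thus depends in part on the filter. Cxcl5, made by epithelium and stroma, was at 2.35, 3.03 and 1.39 CPM in the mice labelled Rag1-/- and 0.45, 0.272 and 0.85 CPM in wild type. It was at 1.11, 1.33 and 1.36 CPM in co-housed mice and at 0, 0.0466 and 0.0656 CPM in separately housed mice. Neither pair of groups overlapped. Cxcl5 rose 4.28-fold in the first comparison (log2 fold change 2.10, SE 0.40, edgeR adjusted p = 0.000704) and 31.7-fold in the second (log2 fold change 4.99, SE 0.61, edgeR adjusted p = 5.8e-06), where the log2 fold change was 5.64 without TCRaSepxT4. The second fold rests on 5 reads in separately housed mice, against 152 in co-housed mice, so its size is imprecise.

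Cxcl1 stayed under 1 CPM in every mouse, with 0.22, 0.711 and 0.512 CPM in the mice labelled Rag1-/- against 0.045, 0 and 0.179 CPM in wild type, and 0.428, 0.732 and 0.396 CPM in co-housed against 0.11, 0.0932 and 0.0437 CPM in separately housed mice. It rose in both (log2 fold change 2.64, SE 0.69, edgeR adjusted p = 0.00789, and log2 fold change 2.63, SE 0.68, edgeR adjusted p = 0.00417). The first call ended without RAG1x3164, RAG1x3168, WTB6x3159 or WTB6x3160 (edgeR adjusted p 0.0217 to 0.0413), and without WTB6x3167 its log2 fold change was 4.25. The second ended without TCRaCox3156 or any of the 3 separately housed mice (adjusted p 0.0115 to 0.0244). Cxcl3 had 30 reads in the mice labelled Rag1-/-, 21 in co-housed mice and 0 in the other 6. With a floor of 3 counts over a group of 0 reads, it was at least 10.3-fold higher in the first comparison (edgeR adjusted p = 0.00474) and at least 7.89-fold higher in the second (adjusted p = 0.00549). The first call ended without any 1 of 5 mice, RAG1x3168 being the exception (0.0134 to 0.0179). The second ended without TCRaCox3155, TCRaSepxT2, TCRaSepxT3 or TCRaSepxT4 (0.0146 to 0.0222). TCRaCox3155 held 12 of the 21 reads, and without it Cxcl3 was at least 4.79-fold higher.

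Cxcl2 was under the count filter, with 29 reads in the mice labelled Rag1-/-, 8 in wild type, 18 in co-housed and 5 in separately housed mice. Cxcr2, the receptor of all these ligands, spanned 1.73 to 2.28 CPM in wild type, 1.49 to 2.58 in the mice labelled Rag1-/-, 2.33 to 3.14 in co-housed and 1.65 to 2.3 in separately housed mice. Neither comparison passed for it (log2 fold change -0.11, SE 0.24, edgeR adjusted p = 0.768 by Rag1 label, and 0.37, SE 0.23, edgeR adjusted p = 0.195 with housing). Neutrophil markers summed to 0.450 to 0.984 CPM in wild type, 1.71 to 2.46 CPM in the mice labelled Rag1-/-, 0.817 to 1.74 CPM in co-housed and 0.186 to 0.329 CPM in separately housed mice. Of the 6 markers 3 could be tested, all 3 rose with housing, and none passed in the Rag1 comparison with edgeR (3 were higher at an unadjusted p under 0.05, and DESeq2 called 1). Their part in the result was not tested.

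Cxcl1, Cxcl2 and Cxcl3 are related genes of 1 cluster (chr5:91215129-91334964, mm9, plus strand), and their promoters are shown because all 3 hold the same 10 letters, GGGAATTTCC, before the start site. The windows are RefSeq's on GRCm38.p6, at chr5:90890995-90891244 for Cxcl1, chr5:90903649-90903898 for Cxcl2 and chr5:90785851-90786100 for Cxcl3, plus strand, 5′ to 3′. Capitals mark matches to the NF-kB motif on either strand.
Cxcl1: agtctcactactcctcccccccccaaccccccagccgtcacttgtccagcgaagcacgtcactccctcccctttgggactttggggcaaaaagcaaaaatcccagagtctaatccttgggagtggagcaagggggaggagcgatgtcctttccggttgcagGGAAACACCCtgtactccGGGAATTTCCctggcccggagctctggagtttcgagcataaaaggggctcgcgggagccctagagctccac
Cxcl2: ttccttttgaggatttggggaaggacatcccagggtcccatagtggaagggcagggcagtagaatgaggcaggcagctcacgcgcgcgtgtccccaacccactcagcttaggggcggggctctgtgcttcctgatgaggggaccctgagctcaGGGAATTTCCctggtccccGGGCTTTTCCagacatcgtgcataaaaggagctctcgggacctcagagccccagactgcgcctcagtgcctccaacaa
Cxcl3: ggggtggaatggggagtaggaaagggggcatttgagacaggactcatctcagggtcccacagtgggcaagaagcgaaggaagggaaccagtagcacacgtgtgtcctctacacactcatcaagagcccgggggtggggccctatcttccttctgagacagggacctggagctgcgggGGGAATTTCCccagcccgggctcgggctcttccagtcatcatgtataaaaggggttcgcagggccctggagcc
The shared match begins 71 bases before the start site in Cxcl1, 97 in Cxcl2 and 73 in Cxcl3, and Cxcl1 and Cxcl2 hold another match each, 89 and 78 bases before. With Cxcl9 and Cxcl10 these are 5 of the 8 promoters that hold an NF-kB match, the others being those of Ccl20, Ccl9 and Ccr3. A match describes letters in the window and is not a measured binding site.

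Genes of organised lymphoid tissue fell in the mice labelled Rag1-/- (3 of 5 tested) and rose with shared housing (4 of 5). These shares were 60.0% and 80.0%, beside 11.5% of all tested genes lower by Rag1 label and 21.1% higher with housing. Cxcr4, the receptor of Cxcl12 on lymphocytes and myeloid cells, was at 22.8, 16.7 and 15.5 CPM in wild type mice and 1.54, 1.56 and 1.54 CPM in the mice labelled Rag1-/-. It was at 12.8, 14.8 and 12 CPM in co-housed and 3.34, 5.24 and 3.96 CPM in separately housed mice. The groups of each comparison were far apart, and the 3 mice labelled Rag1-/- were nearly equal. Cxcr4 fell 11.8-fold (log2 fold change -3.56, SE 0.19, edgeR adjusted p = 2.6e-09) and rose 3.16-fold (log2 fold change 1.66, SE 0.17, edgeR adjusted p = 1e-06). Its ligand Cxcl12, made by stroma, spanned 19.9 to 25.4 CPM in wild type and 18 to 23.9 CPM in the mice labelled Rag1-/- (log2 fold change -0.10, SE 0.13, edgeR adjusted p = 0.621). With housing it was at 21.8, 29.8 and 22.2 CPM against 18.3, 17.6 and 17.2 CPM (log2 fold change 0.48, SE 0.13, edgeR adjusted p = 0.00652). That call ended without TCRaCox3156 or any separately housed mouse (edgeR adjusted p 0.0153 to 0.0445) and with library size alone as scaling (0.0447). Cxcr7, a scavenger receptor of Cxcl12, spanned 2.54 to 6.01 CPM over all 12 mice and passed in neither comparison (log2 fold change 0.02, SE 0.24, edgeR adjusted p = 0.964 by Rag1 label, and 0.24, SE 0.24, edgeR adjusted p = 0.433 with housing).

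Ccr7, which takes lymphocytes and dendritic cells into lymph nodes, was at 2.74, 2.76 and 2.64 CPM in wild type and 0.318, 0.474 and 0.832 CPM in the mice labelled Rag1-/-. Co-housed mice had 3.8, 4.14 and 2.58 CPM and separately housed mice 0.724, 1.12 and 0.744 CPM. Neither pair overlapped, and Ccr7 fell (log2 fold change -2.30, SE 0.30, edgeR adjusted p = 2.4e-05) and rose (log2 fold change 2.02, SE 0.29, edgeR adjusted p = 2.3e-05) accordingly. Of its ligands, Ccl19 had 0 reads and Ccl21a 4 reads in all. Cxcl13, the follicle ligand made by stromal and follicular dendritic cells, was at 22.6, 14.3 and 20.5 CPM in wild type and 6.05, 4.19 and 5.38 CPM in the mice labelled Rag1-/-. It was at 18.6, 24.8 and 17 CPM in co-housed mice and 5.88, 9.02 and 6.8 CPM in separately housed mice. Both pairs of groups were apart, with a 3.67-fold fall (log2 fold change -1.88, SE 0.21, edgeR adjusted p = 1.6e-05) and a 2.79-fold rise (log2 fold change 1.48, SE 0.21, edgeR adjusted p = 5e-05). All 10 B cell markers fell in the mice labelled Rag1-/- and 6 of 10 rose with housing, with sums of 124 to 180 CPM in co-housed, 55.6 to 99.2 CPM in separately housed and 176 to 217 CPM in wild type mice. Of 7 markers of follicular dendritic cells and lymphoid stroma, 4 fell in the first comparison, and 3 rose and 1 fell in the second. Their sums were 189 to 235 CPM in wild type, 117 to 127 CPM in the mice labelled Rag1-/-, 149 to 172 CPM in co-housed and 269 to 279 CPM in separately housed mice. Bst1, which stromal and myeloid cells also express, made up 202 to 227 CPM of the sum in separately housed and 54.1 to 95.4 CPM in co-housed mice. Without it the order of the sums with housing turned, to 76.7 to 108 CPM in co-housed and 52.1 to 66.3 CPM in separately housed mice. They were 90.2 to 96.1 CPM in wild type and 37.8 to 43.4 CPM in the mice labelled Rag1-/-. Mfge8 made up most of this, with means of 66.5 CPM in co-housed and 41.0 CPM in separately housed mice. Enpp2 was at 10.2 against 10.1 CPM and 1100001G20Rik at 0.0889 against 0.491 CPM. The part of these markers in the result was not tested.

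Among the mucosal genes, the ligand Ccl25 fell slightly in both comparisons while its receptor Ccr9 fell in the Rag1 comparison. Ccl25 (chr8:4325210-4360020, mm9) was at 552, 579.9 and 503 CPM in wild type and 382, 432 and 405 CPM in the mice labelled Rag1-/-, a 1.34-fold fall (log2 fold change -0.42, SE 0.08, edgeR adjusted p = 0.000777). It was at 454, 404 and 383 CPM in co-housed and 538, 488 and 519 CPM in separately housed mice, a 1.24-fold fall (log2 fold change -0.32, SE 0.08, edgeR adjusted p = 0.00392). The groups did not overlap in either comparison. The second call ended without TCRaCox3156, TCRaCox3157, TCRaSepxT2 or TCRaSepxT4 (edgeR adjusted p 0.0114 to 0.0215) and in a fit of the 6 libraries alone (0.0119). Enterocyte markers summed to 16215 to 19368 CPM in wild type, 13160 to 15070 CPM in the mice labelled Rag1-/-, 14155 to 16613 CPM in co-housed and 20020 to 22425 CPM in separately housed mice. In each comparison 1 of the 8 rose and 4 fell, and their part in the result was not tested. Ccr9 was at 7.42, 7.27 and 11.9 CPM in wild type and 1.79, 1.45 and 1.96 CPM in the mice labelled Rag1-/- (log2 fold change -2.35, SE 0.36, edgeR adjusted p = 0.000306). Co-housed mice had 3.54, 7.64 and 2.48 CPM and separately housed mice 1.58, 2.03 and 2.12 CPM, without overlap. That difference missed the threshold (log2 fold change 1.26, SE 0.36, edgeR adjusted p = 0.0111) and passed with DESeq2 (adjusted p = 0.000441) and without TCRaCox3157 (edgeR adjusted p = 0.000818).

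Ccr10, the receptor of Ccl27 and Ccl28 on antibody-secreting and skin-homing cells, was at 1.21, 1.77 and 1.5 CPM in wild type and had 0 reads in the mice labelled Rag1-/-, against 199 in wild type. It was thus at least 64.6-fold lower (edgeR adjusted p = 2.1e-06; the floor is 3 counts over the group). In co-housed mice it was at 0.314, 0.434 and 0.495 CPM, against 0.0439, 0 and 0.0875 CPM in separately housed mice (log2 fold change 3.14, SE 0.60, edgeR adjusted p = 0.000579). The groups did not overlap, and without TCRaSepxT4 the log2 fold change was 4.04. Plasma cell markers summed to 1463 to 1943 CPM in wild type, 154 to 168 CPM in the mice labelled Rag1-/-, 343 to 592 CPM in co-housed and 200 to 212 CPM in separately housed mice. Sdc1, which epithelium also expresses, spanned 132 to 180.0 CPM over all groups. The other 6 summed to 1283 to 1792 CPM in wild type, 9.57 to 11.6 CPM in the mice labelled Rag1-/-, 211 to 456 CPM in co-housed and 27.8 to 37.3 CPM in separately housed mice. Igj made up most of this in wild type, co-housed and separately housed mice, with means of 1405.5, 301 and 20.4 CPM. In the mice labelled Rag1-/- Igj was at 0.192 CPM and Fkbp11 led with 8.13 CPM, against 4.59 CPM in wild type. Of these 7 markers, 5 fell and 1 rose in the first comparison, and 5 rose and 1 fell in the second. Their part in the result was not tested. Ccl20, the ligand of the follicle-associated epithelium, was at 2.96, 12.4 and 2.88 CPM in the mice labelled Rag1-/- and 6.07, 4.24 and 4.56 CPM in wild type. RAG1x3164 was above all other mice and the other 2 of its group were below all wild type mice (log2 fold change 0.29, SE 0.56, edgeR adjusted p = 0.739). With housing Ccl20 was at 4.74, 5.01 and 2.06 CPM against 1.6, 1.79 and 1.18 CPM and did not pass (log2 fold change 1.37, SE 0.62, edgeR adjusted p = 0.0932). It passed in a fit of the 6 libraries alone (adjusted p = 0.00518).

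Of the ligands and receptors of helper T cells and dendritic cells, Ccr4 and its ligand Ccl17 rose in both comparisons. Ccr4 was at 4.63, 6.21 and 4.48 CPM in the mice labelled Rag1-/- and 0.585, 0.612 and 1.32 CPM in wild type. It was at 1.54, 2.35 and 3.12 CPM in co-housed and 0.197, 0.0466 and 0.109 CPM in separately housed mice. The 3 mice labelled Rag1-/- were above all other mice. Ccr4 rose 6.06-fold (log2 fold change 2.60, SE 0.33, edgeR adjusted p = 2.4e-05) and 19.3-fold (log2 fold change 4.27, SE 0.45, edgeR adjusted p = 1.7e-06). All 12 T cell markers fell in the mice labelled Rag1-/-, and their part in the Ccr4 result was not tested. Ccl17, which lies with Ccl22 and Cx3cl1 on chromosome 8 (chr8:97269584-97335936, mm9), was at 1.86, 2.06 and 3.09 CPM in the mice labelled Rag1-/- and 0.382, 0.34 and 0.402 CPM in wild type. It was at 1.57, 1.9 and 1.73 CPM in co-housed and 0.395, 0.233 and 0.459 CPM in separately housed mice. The 6 mice of the 2 higher groups were all above the other 6. The gene rose 6.21-fold (log2 fold change 2.64, SE 0.29, edgeR adjusted p = 4.2e-06) and 4.74-fold (log2 fold change 2.25, SE 0.30, edgeR adjusted p = 1.2e-05).

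Ccl22, the other ligand of Ccr4, was at 7.23, 7.06 and 5.57 CPM in co-housed and 1.34, 1.26 and 1.16 CPM in separately housed mice, a 5.28-fold rise (log2 fold change 2.40, SE 0.20, edgeR adjusted p = 8.7e-08). It was at 4.87, 4.29 and 5.21 CPM in the mice labelled Rag1-/- and 2.41, 3.78 and 3.69 CPM in wild type, which did not overlap but missed the threshold (log2 fold change 0.54, SE 0.18, edgeR adjusted p = 0.0327). Xcr1, a receptor of cross-presenting dendritic cells, was at 1.83, 3.41 and 2.38 CPM in co-housed and 0.944, 0.839 and 0.722 CPM in separately housed mice (log2 fold change 1.61, SE 0.31, edgeR adjusted p = 0.000457). In the mice labelled Rag1-/- it was at 2.67, 1.4 and 2.37 CPM, overlapping the 0.90, 0.793 and 1.48 CPM of wild type (log2 fold change 1.02, SE 0.31, edgeR adjusted p = 0.0181). That comparison passed with DESeq2 (adjusted p = 0.00753). Its ligand Xcl1, made by natural killer and T cells, spanned 0.652 to 1.45 CPM in wild type, 0.427 to 0.832 in the mice labelled Rag1-/-, 1.49 to 1.78 in co-housed and 0.831 to 0.987 in separately housed mice. Neither comparison passed for Xcl1 (log2 fold change -0.98, SE 0.33, edgeR adjusted p = 0.0332 by Rag1 label, and 0.84, SE 0.31, edgeR adjusted p = 0.0339 with housing), though the first did without WTB6x3159 (edgeR adjusted p = 0.00782).

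The eosinophil ligand Ccl24 rose in both comparisons and Ccl11 in neither. Ccl24 was at 2.47, 2.7 and 2.41 CPM in the mice labelled Rag1-/- and 0.36, 0.589 and 0.358 CPM in wild type. It was at 2.11, 2.81 and 3.54 CPM in co-housed and 0.395, 0.466 and 0.437 CPM in separately housed mice. Every mouse of the 2 higher groups was above every mouse of the other two. The rises were 5.78-fold (log2 fold change 2.53, SE 0.27, edgeR adjusted p = 2.7e-06) and 6.5-fold (log2 fold change 2.70, SE 0.27, edgeR adjusted p = 6e-07). Ccl11 spanned 2.49 to 9.16 CPM over the 12 mice (log2 fold change 0.21, SE 0.40, edgeR adjusted p = 0.742 by Rag1 label, and -0.02, SE 0.39, edgeR adjusted p = 0.968 with housing). Ccr3, their receptor on eosinophils, stayed under 1 CPM, with 0.45 to 0.637 CPM in the mice labelled Rag1-/- and 0.135 to 0.272 CPM in wild type (log2 fold change 1.37, SE 0.45, edgeR adjusted p = 0.0278). With housing it spanned 0.0857 to 0.32 against 0.176 to 0.328 CPM (log2 fold change -0.16, SE 0.50, edgeR adjusted p = 0.816). Eosinophil markers summed to 7.0 to 8.48 CPM in wild type, 4.84 to 4.95 CPM in the mice labelled Rag1-/-, 5.72 to 7.48 CPM in co-housed and 7.07 to 9.55 CPM in separately housed mice. Siglec5 made up 5.6 to 7.78 CPM of this in separately housed and 2.48 to 4.43 CPM in co-housed mice. The sum of the other 5 markers went the opposite way with housing, with 3.06 to 3.5 CPM in co-housed and 1.47 to 1.86 CPM in separately housed mice. It was 2.22 to 3.35 CPM in wild type and 0.79 to 1.42 CPM in the mice labelled Rag1-/-. Prg2 and Ear2 had means of 1.19 and 0.673 CPM in co-housed against 0.0689 and 0.166 CPM in separately housed mice. Il5ra was at 1.41 against 1.37 CPM, and Epx had 0 reads in co-housed and 13 in separately housed mice. Of these 6 markers Ear1 had 0 reads and 4 could be tested. In the first comparison 1 fell, and in the second 2 rose and 1 fell. Their part in the result was not tested.

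The remaining tested ligands passed in neither comparison. Cxcl16, a membrane-bound ligand, spanned 24.8 to 39.7 CPM over the 12 mice (log2 fold change -0.31, SE 0.13, edgeR adjusted p = 0.0908 by Rag1 label, and -0.13, SE 0.13, edgeR adjusted p = 0.437 with housing). The first passed with library size alone as scaling (edgeR adjusted p = 0.00958). It shares 363 exonic bases with Zmynd15 on the other strand, and the strand setting of the counting is not stated in the labels. Cxcl14, an epithelial and stromal ligand, spanned 11.4 to 12.2 CPM in wild type and 8.01 to 8.7 CPM in the mice labelled Rag1-/- (log2 fold change -0.51, SE 0.16, edgeR adjusted p = 0.0192). It passed there with DESeq2 (adjusted p = 0.00851). With housing its log2 fold change was -0.38 (SE 0.16, edgeR adjusted p = 0.0513). Ccl27a, a ligand of Ccr10, spanned 0.347 to 0.747 CPM (log2 fold change -0.07, SE 0.33, edgeR adjusted p = 0.901 by Rag1 label, and -0.23, SE 0.35, edgeR adjusted p = 0.609 with housing).

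Besides Cxcl2, 6 members were under the count filter: over the 12 mice Cxcl15 had 48 reads, Ccr8 had 16, Ccr1l1 had 10, Ccl1 and Ccl21a had 4 each and Cxcl17 had 2. No read was counted for Ccl19, Ccl21b, Ccl21c, Ccl26, Ccl27b, Ccl28 or Cxcr1. For several of these 0 reads does not show absence. The table places Ccl28 only on an unplaced piece of chromosome 13. It gives Ccl19, Ccl21a, Ccl21b, Ccl21c and Ccl27b exons in several places of a repeated region, and Ccl21b shares 4986 exonic bases with Ccl21c. How reads that match several places were counted is not given.

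**Figure D4:**
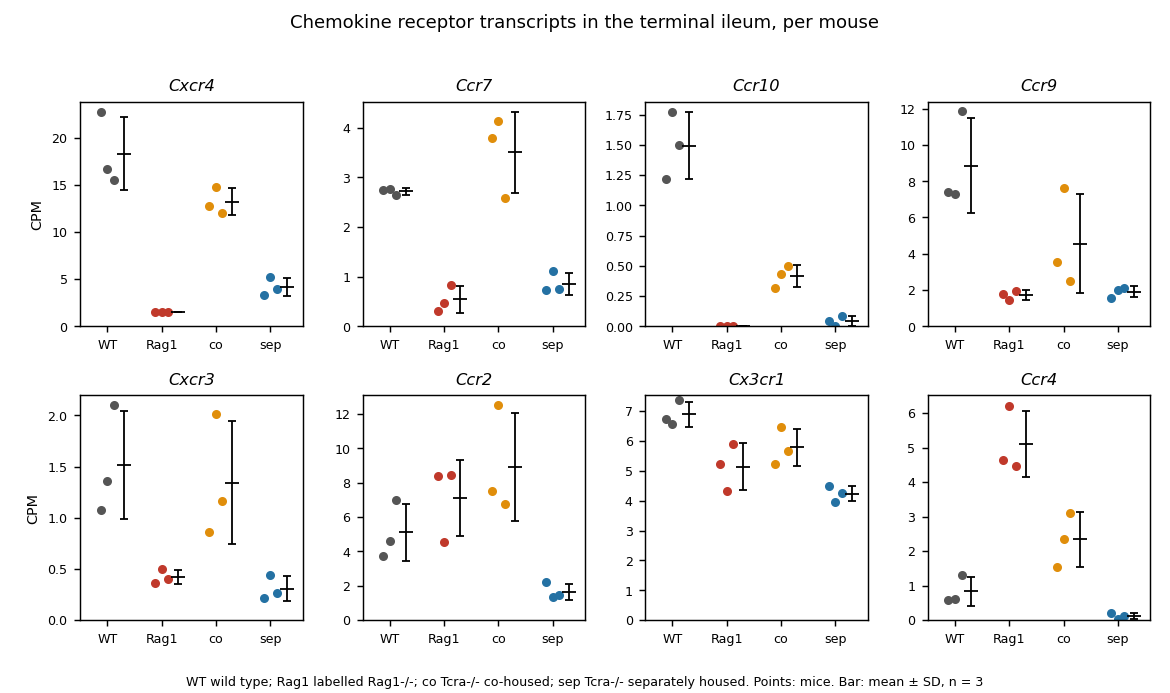
CPM of 8 chemokine receptors in each of the 12 mice, with the mean and SD of each group (n = 3). Cxcr4, Ccr7, Ccr10, Ccr9 and Cxcr3 are low in both the mice labelled Rag1-/- and separately housed Tcra-/- mice, Ccr4 is highest in the mice labelled Rag1-/-, and Ccr2 and Cx3cr1 have their lowest mean in separately housed mice.

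The 2 stated comparisons share no library, and their calls met in 13 members. Ccl17, Ccl24, Ccr4, Cxcl1, Cxcl3 and Cxcl5 rose in both, which is 85.7% of the 7 risen with the Rag1 label and 24.0% of the 25 risen with housing. Among these, Cxcl1 and Cxcl3 passed the count filter only through the groups where they were high. Over all tested genes, 78.3% of the 1494 risen with the Rag1 label and 35.0% of the 3347 risen with housing rose in both. Ccl5, Ccr10, Ccr7, Cxcl13, Cxcr3 and Cxcr4 fell in the mice labelled Rag1-/- and rose with housing, 60.0% of the 10 fallen and again 24.0% of the 25. This is near the 59.5% of all tested members that rose with housing. Over all tested genes, 19.2% of the 1820 fallen with the Rag1 label and 10.4% of the 3347 risen with housing had this pair of calls. Ccl25 fell in both. The members whose rise with housing met no call in the other comparison included Ccl2, Ccl7, Ccl8, Ccl12, Cxcl9, Cxcl10 and Ccr2. Whether the fold changes differ between the 2 comparisons was not tested.

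Against wild type, the separately housed Tcra-/- mice had 15 of 42 members lower (35.7%) and none higher, where 7.7% and 6.06% of all genes were (edgeR; 1 member was higher at an unadjusted p under 0.05 and DESeq2 called none). The median log2 fold change of the members was -0.73, beside 0.00 over all genes. The largest falls were those of Ccr10 (log2 fold change -4.98, SE 0.54, edgeR adjusted p = 1.7e-05), Ccl5 (log2 fold change -4.60, SE 0.53, edgeR adjusted p = 0.000363), Cxcl5 (log2 fold change -3.71, SE 0.67, edgeR adjusted p = 0.000824) and Ccl8 (log2 fold change -3.59, SE 0.58, edgeR adjusted p = 0.00107). Without TCRaSepxT4 the log2 fold change was -5.88 for Ccr10 and -4.37 for Cxcl5, and without TCRaSepxT3 it was -4.52 for Ccl8. Ccr4, Cxcr3, Ccr9, Cxcr4, Cxcl9, Ccl4, Ccr7, Ccr2, Cxcl13, Ccl22 and Cx3cr1 also fell, with log2 fold changes from -2.79 for Ccr4 to -0.70 for Cx3cr1. The call of Cxcl9 ended without TCRaSepxT3 or TCRaSepxT4 (edgeR adjusted p = 0.0113 and 0.0135). That of Ccl4 ended without any separately housed mouse, WTB6x3160 or WTB6x3167 (0.0247 to 0.0413). Cx3cr1 lost its call without TCRaSepxT3, TCRaSepxT4 or WTB6x3167 (0.0103 to 0.013), and Ccr2 without those or WTB6x3160 (0.0128 to 0.0298).

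The co-housed Tcra-/- mice had 13 members higher (31.0%) and 2 lower (4.76%) than wild type, where 9.34% and 9.19% of all genes were, with a median log2 fold change of 0.32, beside 0.00 over all genes. Cxcl1, Ccl24, Ccl17, Ccl8, Cxcl9, Cxcl10, Ccl2, Ccl7, Ccl12, Ccr4, Xcr1, Ccl22 and Ccl9 rose, from 2.76 for Cxcl1 to 0.81 for Ccl9 (log2). Ccr10 fell (log2 fold change -1.83, SE 0.39, edgeR adjusted p = 0.00286), as did Ccl25 (log2 fold change -0.40, SE 0.08, edgeR adjusted p = 0.0015). The count of rises fell to 7 without TCRaCox3156, 5 without WTB6x3159, 4 without WTB6x3160 and 6 in a fit of the 6 libraries alone. Of the 15 calls, the 5 for Ccl24, Ccl17, Ccl22, Ccl9 and Ccl25 held under every alternative. Single mice ended the others. For Ccl8 this was WTB6x3160 (edgeR adjusted p = 0.0133), for Cxcl9 WTB6x3159 or WTB6x3160 (0.0166 and 0.0178), and for Cxcl10 any wild type mouse (0.0172 to 0.0216). Ccl12 and Xcr1 lost their calls without TCRaCox3156, WTB6x3159 or WTB6x3160 (0.0112 to 0.0345), and Ccr10 without TCRaCox3155, TCRaCox3156 or WTB6x3160 (0.0114 to 0.0165). Ccr4 lost its call without TCRaCox3156, TCRaCox3157, WTB6x3159 or WTB6x3160 (0.0113 to 0.0233), and Cxcl1 without TCRaCox3155, TCRaCox3156, WTB6x3159 or WTB6x3160 (0.0109 to 0.0329). The call of Ccl7 ended without any 1 of the 6 mice (0.0114 to 0.0443) and that of Ccl2 without any but TCRaCox3157 (0.0201 to 0.0347). The count of falls was 1 without TCRaCox3155 or WTB6x3160 and 4 with DESeq2. Without WTB6x3167 the log2 fold change of Cxcl1 was 4.37. This comparison and the 2 stated ones share libraries, as does the one before it.

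The mice labelled Rag1-/- and the co-housed Tcra-/- mice had the fewest members called apart among the 5 comparisons made; the mice labelled Rag1-/- were not compared with separately housed mice. Of 42 members 4 were lower (9.52%) and none higher in the former, where 2.55% and 0.34% of all genes were, and the median log2 fold change was -0.33, beside -0.01 over all genes. Cxcr4 (log2 fold change -3.09, SE 0.19, edgeR adjusted p = 5.1e-08), Ccr7 (log2 fold change -2.67, SE 0.30, edgeR adjusted p = 2.3e-05) and Cxcl13 (log2 fold change -1.95, SE 0.21, edgeR adjusted p = 5e-05) were lower. Ccr10, with 0 reads against 50, was at least 18.2-fold lower (edgeR adjusted p = 0.000428). At an unadjusted p under 0.05, 3 members were higher, and DESeq2 called 1, Ccr4 (adjusted p = 0.00745). DESeq2 called 8 members lower, and edgeR called 9 lower without TCRaCox3157.

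Of 6 tested atypical and related receptors and platelet ligands, none passed in the Rag1 comparison with edgeR (none at an unadjusted p under 0.05 or with DESeq2 either) and 3 rose with housing. They were Ccbp2, a scavenger of inflammatory CC ligands (log2 fold change 1.69, SE 0.36, edgeR adjusted p = 0.000959), Cmklr1, the chemerin receptor (0.92, SE 0.22, edgeR adjusted p = 0.002), and Ccrl2, which binds chemerin (0.95, SE 0.24, edgeR adjusted p = 0.00322). Among 27 genes of chemokine receptor signalling, 14 fell (51.9%, beside 11.5% of all tested genes) and none rose in the mice labelled Rag1-/- with edgeR (2 were higher at an unadjusted p under 0.05, and DESeq2 called 1). The smallest adjusted p-values were those of Dock2, which links the receptors to lymphocyte migration (-2.69, SE 0.16, edgeR adjusted p = 5.6e-09), the small GTPase Rac2 (-1.85, SE 0.14, edgeR adjusted p = 1.1e-07) and Rgs2, which curbs G protein signals (-1.02, SE 0.09, edgeR adjusted p = 3.5e-07). With housing 8 rose and 6 fell, 29.6% and 22.2%, near the 21.1% and 17.7% of all tested genes. The genes with the smallest adjusted p there were Arrb1, Prex1 and Dock2. Arrb1, which ends receptor signals, fell (-1.09, SE 0.09, edgeR adjusted p = 9.1e-08), and Prex1 (1.32, SE 0.12, edgeR adjusted p = 1.8e-07) and Dock2 (1.38, SE 0.15, edgeR adjusted p = 1.2e-06) rose. Of 12 adhesion molecules of lymphocyte homing, 11 fell in the mice labelled Rag1-/-, among them the integrin chains Itga4 (-1.79, SE 0.16, edgeR adjusted p = 4.6e-07) and Itgal (-2.87, SE 0.27, edgeR adjusted p = 4e-06). With housing 10 of the 12 rose, among them Icam1 (1.82, SE 0.15, edgeR adjusted p = 8.5e-08), Itgb2 (1.65, SE 0.19, edgeR adjusted p = 5.2e-06) and Selplg (1.58, SE 0.21, edgeR adjusted p = 1.5e-05). In the Rag1 and housing comparisons the median log2 fold changes were 0.05 and 0.94 for the atypical receptors, -0.59 and 0.12 for signalling genes and -1.75 and 1.56 for homing molecules, beside -0.02 and -0.01 over all tested genes. The T cell, B cell and macrophage marker sums given above moved in the same directions as the homing molecules in both comparisons. The part of these markers in the results of the lists was not tested.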

How the data were processed

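RNA of the terminal ileum was taken up in Trizol and made into stranded mRNA libraries, 1 per mouse, per the labels' protocols. Per the submitters' processing notes, the authors used bcl2fastq, TopHat2 2.0.11, Bowtie2 2.2.2.0, featureCounts of Subread 1.4.5-p1, DESeq2 1.12.3 and mm9. Per the file headers and their whole numbers, the deposited table holds unscaled read counts for each gene, with its exon length. The gene annotation, strand setting and treatment of reads that match several places are not given in the sources used.

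From the deposited counts, genes were kept by edgeR's filterByExpr over the 4 groups, libraries were scaled by TMM, and all 12 libraries were fitted together with 1 mean per group (8 residual degrees of freedom) by edgeR 4.0.16's robust quasi-likelihood test in R 4.3.3. A shared fit estimates the spread once for all groups. The SE is the log2 fold change divided by the square root of F. Adjusted p-values are Benjamini-Hochberg over all tested genes. CPM is the count scaled to 1000000 reads of the TMM-corrected library size, and lengths served only for CPM per kb. The procedure was tested on simulated data.

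The members and all gene lists were chosen with earlier results of these data known, so no test over a list was made. Members with reads were named by role. Values of every mouse are given for members called in either stated comparison that reach a mean of 1 CPM in a group, and for partners. For the pathway lists, the 3 genes with the smallest adjusted p were named. The values of 1 receptor and 1 homing molecule, which enter the counts and medians, are not reported here. Members called in neither comparison, and those under the filter, are given by range or reads. The values of Cxcl1 and Ccl4, whose means stay under 1 CPM, were added after they were seen, as were the sums of 3 marker lists without the gene that leads them. Fold bounds set a group of 0 reads to 3 counts over the group. Alternatives were DESeq2 1.42.0, DESeq2's size factors, library size alone, other filters, the 6 compared libraries alone, and leaving out each mouse. Gene positions are mm9, and promoters are RefSeq's on GRCm38.p6; the builds were not mixed.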

Additional observations from a re-analysis of the deposited data

How the results depend on the processing

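No called member changed direction under any alternative that tested it. Of members not called, 10 of 25 in the Rag1 comparison and 4 of 16 with housing did, and the members' median ran from -0.11 (library size alone) to 0.09 and from 1.33 to 1.67. Called under all 12 alternatives were 12 of the 17 members called in the Rag1 comparison, 18 of 26 with housing (Ccl7 and Ccl12 kept their calls in the 11 that tested them), 11 of 15 for separately housed against wild type, 5 of 15 for co-housed against wild type and 4 of 4 for Rag1-labelled against co-housed mice; the cause of the other changes was not tested. With DESeq2, 2 members were lower with housing (1 with edgeR), 4 were lower in co-housed than wild type mice (2), and 1 was higher and 8 lower in Rag1-labelled than co-housed mice (0 and 4). In fits of the 6 compared libraries, none was lower with housing and 6 were higher in co-housed than wild type mice (13). When 1 mouse was left out, members higher in the Rag1 comparison numbered 4 to 7, members lower with housing 0 to 1, members higher in co-housed than wild type mice 4 to 11 and lower 1 to 3, and members lower in Rag1-labelled than co-housed mice 4 to 9. These fits have fewer samples, and 3 mice per group limit the precision of every value. No paired analysis was possible because the groups share no replicate number. Genes under about 1 CPM, such as Cxcl1, Cxcl3 and Ccr3, rest on few reads. So do the folds of Cxcl5 and Ccr10 that involve separately housed mice, with 5 and 6 reads in that group.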

Other observations

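Within 1 gene neighbourhood, the ratio of Cxcl9 to Cxcl11 differed between groups, with both levels taken per kb of exon. It was 0.472 to 0.687 in Tcra-/- mice housed apart, where Cxcl11 was above Cxcl9 in each mouse. In co-housed mice of this genotype it was 14.7 to 28.2. Wild type ratios were 2.58 to 4.25, and those of the mice labelled Rag1-/- were 7.42 to 18.1. The groups of each stated comparison did not overlap in this ratio, which was chosen after the values were seen and was not tested. Wild type mice and the mice labelled Rag1-/- overlapped in Cxcl9 and did not overlap in Cxcl11.

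One co-housed mouse, TCRaCox3156, was the highest of its group for 28 of the 42 tested members, and it also had the highest marker sums of its group for T cells (70.2 CPM) and for macrophages and dendritic cells (526 CPM). WTB6x3167 was the highest wild type mouse for 24 of the 42.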
